A study of Homo sapiens with 12 samples.

Results

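The 50 genes described here encode the translation initiation factors eIF1 to eIF6, the 4 kinases that phosphorylate eIF2, and the eIF4E-binding proteins (4E-BPs). They were chosen by gene symbol from a fixed list without pseudogenes. No measured value was a criterion, though earlier results of these data were known. All 50 were found among the 57353 gene names of the count table, and 49 were among the 12998 genes that passed the filter on low counts. EIF4EBP3 was the exception, at 0.573 ± 0.159 CPM (counts scaled to a common library size; mean ± SD, n = 3) with vehicle in RPMI.

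RNA came from MOLM-13, an established human acute myeloid leukemia (AML) line that carries an internal tandem duplication of the receptor kinase FLT3 (FLT3-ITD). Cells were kept for 15 hr with vehicle (DMSO) or with 3 nM quizartinib (AC220), an inhibitor of FLT3. They grew either in RPMI with serum or in hBMSC-CM, which is RPMI mixed in equal parts with medium conditioned by HS-5, a stromal line of human bone marrow. The 4 groups, vehicle RPMI, quizartinib RPMI, vehicle hBMSC-CM and quizartinib hBMSC-CM, held 3 libraries each. All groups share the cell line, the FLT3-ITD and the time. The conditioned medium comes from 1 stromal line and does not stand for contact with stroma. It could also differ from RPMI in metabolites and nutrients, as the study states, and these libraries cannot tell that apart from secreted factors. The study found protection from apoptosis in the heavy fraction of the medium, but these libraries hold no fractions. The comparisons ask how FLT3 inhibition changed these transcripts, and how far the conditioned medium altered that response. The study describes its replicates as biological, while the labels do not tell which cultures they came from, so p-values refer to the spread between these samples.

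Initiation begins when eIF2 with GTP carries the initiator tRNA to the small ribosomal subunit, helped by eIF1, eIF1A, eIF5 and the scaffold eIF3. The mRNA is brought in by eIF4F, made of the cap-binding protein eIF4E, the scaffold eIF4G and the helicase eIF4A, and 4E-BPs compete with eIF4G for eIF4E until mTORC1 phosphorylates them. The exchange factor eIF2B recharges eIF2 with GTP, and the kinases HRI, PKR, PERK and GCN2 block that step by phosphorylating eIF2α. Growth signals in leukemia cells are known to act on this machinery, mostly through the proteins, which mRNA counts do not show.

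Library totals lay between 19966546 and 31546104 counts, and the summed counts of these genes took between 1.28% and 1.41% of a library. The AML marker list (10 genes) summed to between 1146 and 2296 CPM. The list for HS-5 stroma (10 genes) summed to between 0.997 and 6.38 CPM, highest in the quizartinib RPMI libraries, and 5 of its 10 genes were at 0 in every group. The share of mitochondrially encoded counts was 1.02% to 1.10% in quizartinib RPMI and 0.683% to 0.790% in vehicle RPMI, against 0.683% to 0.947% and 0.458% to 0.613% in the hBMSC-CM groups, and its part in the results was not tested. In bulk RNA, fewer cells of a type and less RNA per cell cannot be told apart.

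Sequences just upstream of the RefSeq gene starts (GRCh38.p14) are given for 6 genes, because they carry the letters CACGTG, the E-box that MYC and related factors are known to read, and because 4 of the genes fell and 2 rose under quizartinib. Capitals mark the E-box, which reads the same on both strands. The EIF4G1 stretch shows the E-box that begins 144 bases before the gene start. Another, 67 bases before that start, lies outside the stretch. EIF4E at chr4:98929183-98929373, minus strand, EIF4G1 at chr3:184314436-184314494, plus strand, EIF4A3 at chr17:80147218-80147273, minus strand and EIF2B3 at chr1:44986745-44986800, minus strand fell in RPMI. EIF4B at chr12:53006422-53006451, plus strand and EIF3F at chr11:7987257-7987286, plus strand rose. In the GENCODE annotation the EIF4E, EIF4G1 and EIF2B3 stretches lie outside exons, that of EIF4A3 overlaps an exon of an unnamed gene on the other strand, and the short EIF4B and EIF3F stretches lie in first exons of longer transcripts of those genes.
EIF4E: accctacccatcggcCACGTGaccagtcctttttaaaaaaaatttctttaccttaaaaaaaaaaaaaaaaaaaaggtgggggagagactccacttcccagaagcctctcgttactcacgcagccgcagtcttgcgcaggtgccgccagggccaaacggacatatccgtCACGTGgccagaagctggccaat
EIF4G1: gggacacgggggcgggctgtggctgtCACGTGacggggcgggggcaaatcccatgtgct
EIF4A3: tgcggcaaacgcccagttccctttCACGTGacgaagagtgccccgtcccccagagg
EIF2B3: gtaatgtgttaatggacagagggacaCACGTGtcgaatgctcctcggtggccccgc
EIF4B: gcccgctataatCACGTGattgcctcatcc
EIF3F: aaagctctagctCACGTGgtgtatattcag

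RefSeq windows of 300 bases, from 250 before to 50 after a start, were found for 42 of the 50 genes, and 11 of these 42 (26.2%) held an E-box in at least 1 window. Among all tested genes with a window the share was 1185 of 8998 (13.2%). By response in RPMI, 6 of the 23 genes with a window that fell held the E-box, 2 of the 7 that rose, and 2 of the 11 that were not called. The remaining gene with an E-box was EIF4EBP3, which was not tested. EIF4G1 held the E-box in 1 of its 3 windows. Counted by window, TGACGT, the core of the cAMP response element searched on both strands, stood in 8 of 57 windows (14%) against 10.7% of the windows of tested genes and 7.98% of all 35116 windows in the table. TGATGNAAN, an element of ATF4 targets, stood in 1 of 57 (1.75%, EIF4E3) against 1.97% for tested genes and 3.61% for all windows. These letters are a description of the windows and show neither binding nor a cause.

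Quizartinib in RPMI lowered 26 and raised 11 of the 49 tested genes (adjusted p under 0.05, quasi-likelihood test of edgeR, Benjamini-Hochberg adjusted over all 12998 genes, used for every adjusted p here). Across all tested genes, 79.2% were called, 39.8% higher and 39.4% lower, so the share of these genes that was called is near the background. The fall was at least 2-fold for 8 of the 49, against 11.9% of all genes called lower by that much, and no gene of the list rose 2-fold. The median log2 fold change was -0.14, against 0.02 over all genes. Every change given here is relative to the other counts of a library. In its polysome experiment the study reported significantly less RNA from whole lysates of quizartinib-treated cells, so changes per cell are not shown here. The libraries of both groups did not overlap for 39 of the 49, against 81.1% of all genes.

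**Figure D1:**
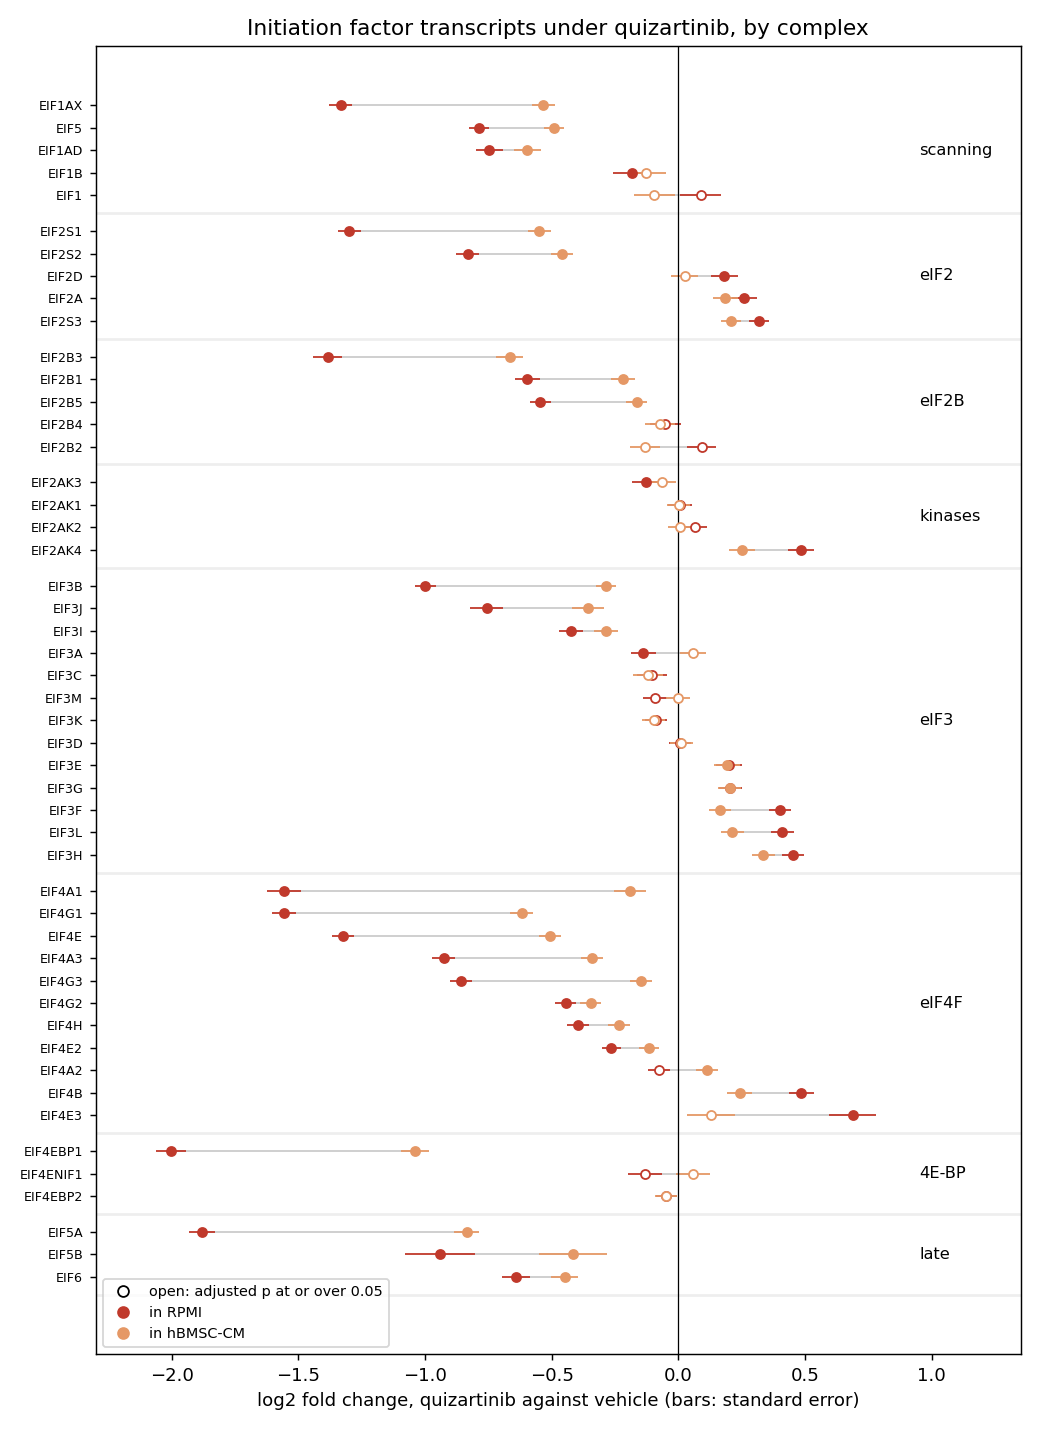
Log2 fold change of quizartinib against vehicle (horizontal axis) in RPMI (red) and hBMSC-CM (orange) for the 49 tested genes, grouped by complex, with standard errors and open points for genes not called. In RPMI the values run from -2.004 (EIF4EBP1) to 0.69 (EIF4E3), and most red points lie farther from 0 than the orange ones.

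The largest fall in RPMI among the 49 genes was that of a 4E-BP. EIF4EBP1, which encodes the translational repressor 4E-BP1, stood at 122, 116 and 122 CPM in vehicle RPMI, 28.1, 30.3 and 31.5 CPM in quizartinib RPMI, 145, 149 and 161 CPM in vehicle hBMSC-CM, and 79.7, 68.7 and 72.9 CPM in quizartinib hBMSC-CM. Every quizartinib library was below every vehicle library in the same medium, and the RPMI libraries with drug were the lowest of all. The log2 fold change was -2.004 ± 0.059 (SE; edgeR adjusted p = 6.68e-18) in RPMI and -1.04 ± 0.055 in hBMSC-CM (edgeR adjusted p = 7.04e-13). Its paralog EIF4EBP2 behaved differently, at 174, 176 and 182 CPM in vehicle RPMI, 173, 172 and 169.6 CPM in quizartinib RPMI, 159, 151 and 148 CPM in vehicle hBMSC-CM, and 141, 153 and 149 CPM in quizartinib hBMSC-CM. It was not called under quizartinib in either medium (-0.05 and -0.05), while hBMSC-CM held less of it than RPMI, both with vehicle (-0.22 ± 0.043) and with drug (-0.22 ± 0.043). EIF4ENIF1, the eIF4E transporter, was not called in any comparison.

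Among the subunits of eIF4F itself, EIF4E, the cap-binding subunit, stood at 114, 110.4 and 113 CPM in vehicle RPMI, 45.6, 44.0 and 45.6 CPM in quizartinib RPMI, 122, 124 and 133 CPM in vehicle hBMSC-CM, and 89.8, 89.5 and 87.1 CPM in quizartinib hBMSC-CM. All 3 quizartinib RPMI libraries lay below all 9 others, and the drug-treated hBMSC-CM libraries lay between them and the vehicle groups. EIF4G1, the main scaffold, showed the same order at 923, 870.2 and 914 CPM in vehicle RPMI, 300.0, 312 and 309 CPM in quizartinib RPMI, 1013, 1003 and 928 CPM in vehicle hBMSC-CM, and 630.1, 622 and 665 CPM in quizartinib hBMSC-CM. The log2 fold changes in RPMI and hBMSC-CM were -1.32 ± 0.044 and -0.51 ± 0.042 for EIF4E, and -1.56 ± 0.047 and -0.62 ± 0.046 for EIF4G1.

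EIF4A1, which encodes the main eIF4A helicase, stood at 36.1, 38.8 and 36.1 CPM in vehicle RPMI, 13.1, 12.5 and 12.1 CPM in quizartinib RPMI, 30.7, 29.1 and 31.4 CPM in vehicle hBMSC-CM, and 24.6, 26.7 and 28.8 CPM in quizartinib hBMSC-CM. Its quizartinib RPMI libraries were again the lowest, and in hBMSC-CM each drug library lay just below each vehicle library. The log2 fold change was -1.56 ± 0.068 in RPMI and -0.19 ± 0.064 in hBMSC-CM. The latter call was lost in 3 of 22 alternative fits, among them those with library-size or upper-quartile scaling. EIF4A1 counts are uncertain, since its exons overlap a readthrough gene with SENP3 (28.2% of exon bases) and several small nucleolar RNAs. A long noncoding RNA gene on the same strand overlaps 42.1% of its exon bases. That gene was not found in the count table by its GENCODE name and is not among the copies below. Its 14 named copies, which are that readthrough gene and pseudogenes, took 46% of the summed count. With those copies added, an alternative chosen after seeing the data, the RPMI change was -1.15 and the hBMSC-CM change -0.23. The paralog EIF4A2 stood at 306, 312 and 306 CPM in vehicle RPMI, 303, 280.5 and 293 CPM in quizartinib RPMI, 275, 278 and 294 CPM in vehicle hBMSC-CM, and 314, 309 and 292 CPM in quizartinib hBMSC-CM. It was not called in RPMI (-0.08 ± 0.043) and was called slightly higher in hBMSC-CM (0.11 ± 0.044) with overlapping libraries. That call was lost in 6 of 22 alternative fits, among them the fit without the filter on low counts.

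**Figure D2:**
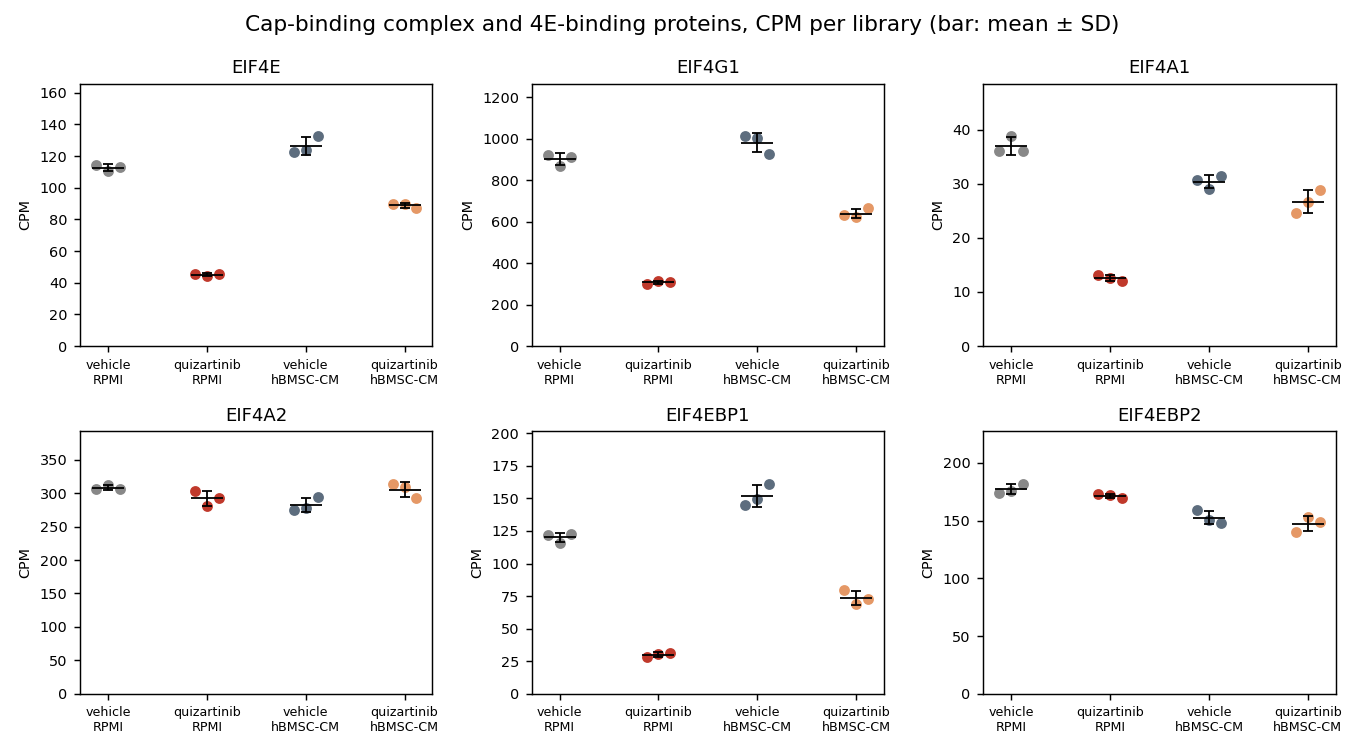
CPM per library (vertical axes, starting at 0) of EIF4E, EIF4G1, EIF4A1, EIF4A2, EIF4EBP1 and EIF4EBP2 in the 4 groups, with mean and SD bars (n = 3). Quizartinib RPMI is the lowest group for EIF4E, EIF4G1, EIF4A1 and EIF4EBP1, and quizartinib hBMSC-CM sits between it and the vehicle groups.

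Of the 11 genes grouped here as eIF4F and its partners, which include family members outside eIF4F such as EIF4A3, 8 fell and 2 rose in RPMI. Besides those above, EIF4A3, the helicase of the exon junction complex, changed by -0.93 ± 0.045, EIF4G3, a second scaffold, by -0.86 ± 0.043, and EIF4G2 (DAP5), EIF4H and EIF4E2 by -0.44, -0.40 and -0.26. EIF4B, which stimulates eIF4A, rose from its place among the most abundant members, with 1623, 1682 and 1596 CPM with vehicle and 2295, 2268 and 2299 CPM with quizartinib in RPMI, against 1695, 1782 and 1788 CPM and 2218, 1989.8 and 2018 CPM in hBMSC-CM. Both quizartinib groups lay above both vehicle groups without overlap, by 0.49 ± 0.049 in RPMI and 0.24 ± 0.049 in hBMSC-CM. EIF4E3, an atypical cap-binding paralog of low level (6.54 to 10.5 CPM as group means), rose by 0.69 ± 0.092 in RPMI and was not called in hBMSC-CM (0.13 ± 0.094).

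Within eIF2 the subunits moved in opposite directions. EIF2S1, the α subunit that the kinases phosphorylate, stood at 192, 203 and 197 CPM in vehicle RPMI, 81.5, 79.4 and 79.9 CPM in quizartinib RPMI, 214, 225 and 219.9 CPM in vehicle hBMSC-CM, and 161, 144 and 145 CPM in quizartinib hBMSC-CM. Its quizartinib RPMI libraries were the lowest and did not overlap any other group. The log2 fold change of EIF2S1 was -1.30 ± 0.047 in RPMI and -0.55 ± 0.045 in hBMSC-CM. EIF2S2, the β subunit, fell as well (-0.83 ± 0.044 and -0.46 ± 0.043). EIF2S3, the γ subunit that binds GTP and the initiator tRNA, rose in both media (0.32 ± 0.041 and 0.21 ± 0.041). The eIF2-like factors EIF2A and EIF2D rose by 0.26 and 0.18 in RPMI, and the EIF2D call was lost without the filter on low counts.

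Among the 5 subunits of eIF2B, 3 fell in each medium and none rose. EIF2B3, the γ subunit, stood at 50.5, 51.7 and 50.8 CPM in vehicle RPMI, 20.0, 19.4 and 19.1 CPM in quizartinib RPMI, 57.1, 62.9 and 62.3 CPM in vehicle hBMSC-CM, and 40.3, 36.8 and 37.5 CPM in quizartinib hBMSC-CM. Its quizartinib RPMI libraries were the lowest, those of quizartinib hBMSC-CM came next, and no 2 groups overlapped, with changes of -1.38 ± 0.057 and -0.67 ± 0.053. EIF2B5, the catalytic ε subunit, stood at 133, 143 and 129.8 CPM in vehicle RPMI, 95.2, 91.8 and 91.6 CPM in quizartinib RPMI, 146, 146 and 149 CPM in vehicle hBMSC-CM, and 133, 130.1 and 130.4 CPM in quizartinib hBMSC-CM. It changed by -0.54 ± 0.042 in RPMI and by -0.16 ± 0.042 in hBMSC-CM, where the call was lost with library-size or upper-quartile scaling. EIF2B1, the α subunit, fell in both (-0.60 and -0.22), and EIF2B2 (β) and EIF2B4 (δ) were not called under quizartinib in either medium.

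The 4 eIF2 kinases had the smallest median absolute log2 fold change of the 8 role groups in RPMI (0.0973), with 1 called higher and 1 lower. EIF2AK4 (GCN2, which senses uncharged tRNA) stood at 48.6, 48.2 and 47.5 CPM in vehicle RPMI, 65.3, 67.1 and 69.5 CPM in quizartinib RPMI, 48.5, 54.2 and 47.5 CPM in vehicle hBMSC-CM, and 57.4, 61.0 and 60.2 CPM in quizartinib hBMSC-CM. Every drug library was above every vehicle library of its medium, with changes of 0.48 ± 0.052 in RPMI and 0.25 ± 0.052 in hBMSC-CM. EIF2AK3 (PERK, the kinase of the endoplasmic reticulum) stood at 35.6, 34.9 and 36.4 CPM in vehicle RPMI, 35.1, 30.9 and 31.7 CPM in quizartinib RPMI, 38.8, 38.5 and 39.1 CPM in vehicle hBMSC-CM, and 37.6, 37.3 and 36.4 CPM in quizartinib hBMSC-CM. Its RPMI groups overlapped, and its call there (-0.13 ± 0.055, edgeR adjusted p = 0.0373) was lost under library-size scaling, upper-quartile scaling and DESeq2's test, with copies added, and without any 1 of 5 libraries. Without quizartinib RPMI replicate 2 the change of EIF2AK3 was -0.08. EIF2AK1 (HRI) and EIF2AK2 (PKR) were not called in any comparison, with log2 fold changes in RPMI of 0.01 ± 0.047 and 0.07 ± 0.046.

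**Figure D3:**
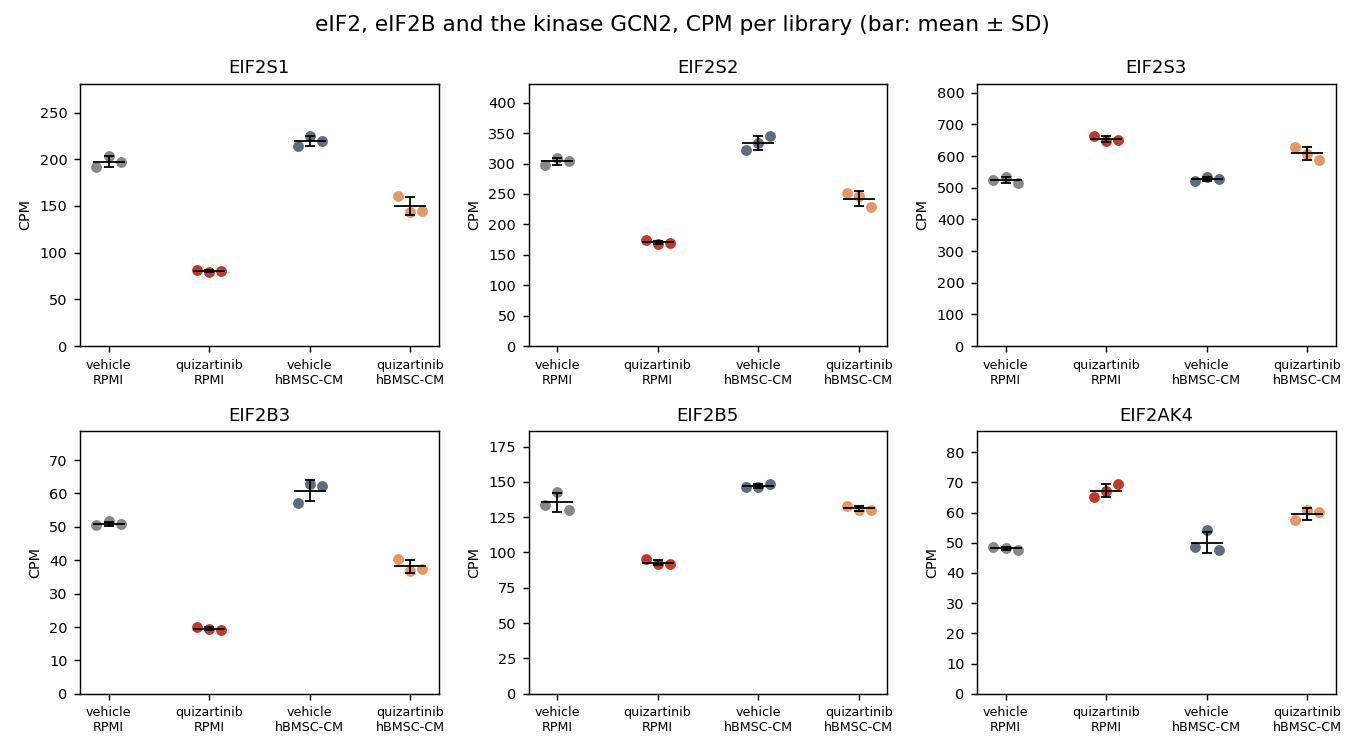
CPM per library (vertical axes, starting at 0) of EIF2S1, EIF2S2, EIF2S3, EIF2B3, EIF2B5 and EIF2AK4 in the 4 groups, with mean and SD bars (n = 3). EIF2S1, EIF2S2, EIF2B3 and EIF2B5 are lowest in quizartinib RPMI, whereas EIF2S3 and EIF2AK4 are highest there.

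The 13 subunits of eIF3, the scaffold of the small-subunit complex, split into 5 that rose, 4 that fell and 4 that were not called in RPMI. EIF3B, a core subunit, stood at 395, 401 and 387 CPM in vehicle RPMI, 192, 201 and 199 CPM in quizartinib RPMI, 414, 444 and 427 CPM in vehicle hBMSC-CM, and 354, 352 and 347 CPM in quizartinib hBMSC-CM. The quizartinib RPMI libraries were the lowest, and those of quizartinib hBMSC-CM lay above them and below all vehicle libraries. EIF3J, the loosely bound subunit, and EIF3I fell, with log2 fold changes of -0.76 ± 0.065 and -0.43 ± 0.048, after -0.999 ± 0.041 for EIF3B. EIF3A was called lower (-0.14 ± 0.051), a call lost in 5 of 22 alternative fits, among them those with library-size or upper-quartile scaling.

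In the opposite direction, EIF3H stood at 451, 435 and 436 CPM with vehicle and 618, 591 and 602 CPM with quizartinib in RPMI, against 419, 448 and 399 CPM and 529.7, 539 and 528 CPM in hBMSC-CM. Its drug libraries were above its vehicle libraries in each medium without overlap. EIF3L stood at 268, 277 and 263 CPM with vehicle and 369.9, 341 and 364 CPM with quizartinib in RPMI, against 252, 269.9 and 261 CPM and 314, 304 and 289 CPM in hBMSC-CM. EIF3F stood at 253, 246 and 249 CPM with vehicle and 317, 325 and 347 CPM with quizartinib in RPMI, against 236, 243 and 247 CPM and 285, 260.5 and 269 CPM in hBMSC-CM. Neither overlapped between drug and vehicle in either medium, and the RPMI changes were 0.45 ± 0.044 for EIF3H, 0.41 ± 0.045 for EIF3L and 0.40 ± 0.044 for EIF3F. A long noncoding RNA gene on the same strand shares 41.1% of the EIF3L exon bases, so EIF3L counts are uncertain. EIF3E and EIF3G rose by 0.20 and 0.20 in RPMI and by 0.19 and 0.20 in hBMSC-CM, and the EIF3G call in RPMI was lost without the filter on low counts. EIF3C, EIF3D, EIF3K and EIF3M were not called under quizartinib in either medium, though EIF3C shares its reads with the near-identical EIF3CL, which held 51.8% of their sum, and with that copy added EIF3C was called lower in RPMI (-0.19) and in hBMSC-CM (-0.21).

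**Figure D4:**
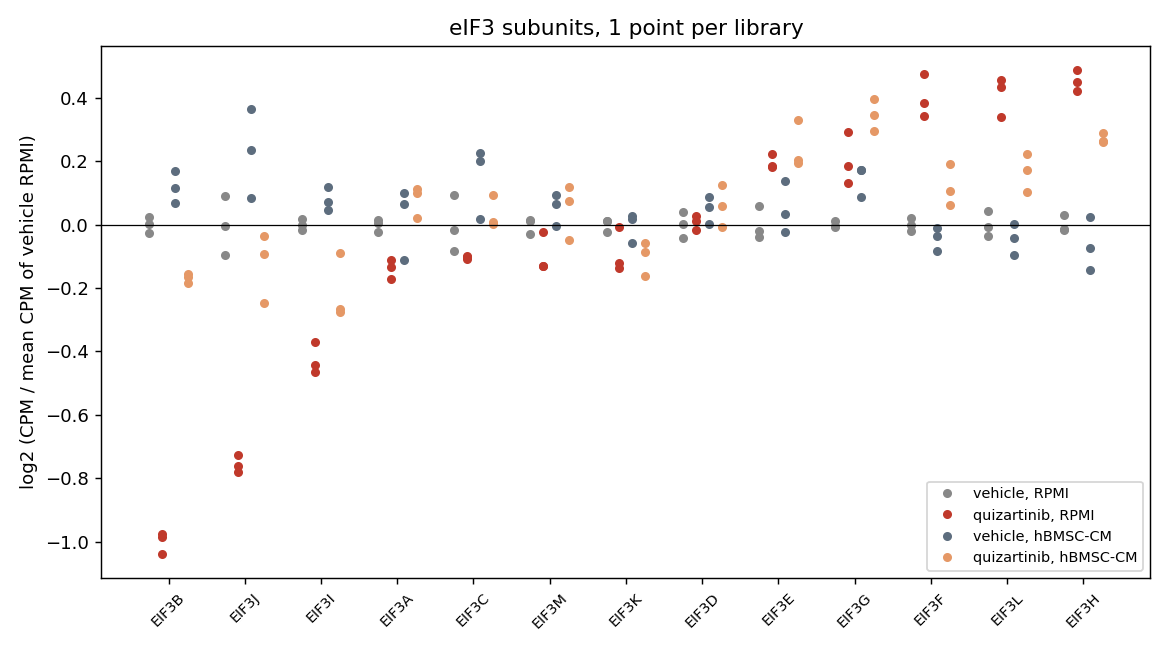
Log2 ratio of each library's CPM to the mean of vehicle RPMI (vertical axis) for the 13 eIF3 subunits, ordered by their change in RPMI, with 1 point per library and 4 colours for the groups. EIF3B, EIF3J and EIF3I lie at the low end in quizartinib RPMI and EIF3F, EIF3L and EIF3H at the high end.

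The genes grouped here as scanning factors, with EIF1AD included by its name, fell or were not called. EIF1AX, the eIF1A gene, stood at 111, 110.1 and 116 CPM in vehicle RPMI, 46.9, 44.6 and 42.1 CPM in quizartinib RPMI, 118, 121 and 121 CPM in vehicle hBMSC-CM, and 85.3, 82.2 and 81.2 CPM in quizartinib hBMSC-CM. The 3 quizartinib RPMI libraries were below the rest, and no 2 groups overlapped. EIF5, which triggers GTP hydrolysis by eIF2, and EIF1AD, named for its likeness to eIF1A, fell (-0.79 ± 0.038 and -0.75 ± 0.055), as did EIF1AX (-1.33 ± 0.046). EIF1, which guards start codon choice, was not called (0.09 ± 0.080), and EIF1B was called (-0.18 ± 0.078) with overlapping libraries, a call lost under 4 alternatives besides libraries left out. Without quizartinib RPMI replicate 3 the change of EIF1B was -0.12.

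All 3 late factors fell in both media. EIF5A, which helps stalled ribosomes and carries hypusine, stood at 431, 393 and 410.4 CPM in vehicle RPMI, 105, 113 and 117 CPM in quizartinib RPMI, 454, 441 and 419.6 CPM in vehicle hBMSC-CM, and 258, 239 and 239 CPM in quizartinib hBMSC-CM. The quizartinib RPMI libraries lay below all others, and quizartinib hBMSC-CM stayed below both vehicle groups. The changes were -1.88 ± 0.051 in RPMI and -0.84 ± 0.049 in hBMSC-CM. EIF6, which keeps ribosomal subunits apart, stood at 70.1, 67.0 and 67.2 CPM in vehicle RPMI, 40.9, 44.7 and 45.5 CPM in quizartinib RPMI, 75.5, 74.4 and 76.8 CPM in vehicle hBMSC-CM, and 57.4, 50.7 and 57.8 CPM in quizartinib hBMSC-CM. No 2 of its groups overlapped, and quizartinib changed it by -0.64 ± 0.054 and -0.45 ± 0.053. EIF5B, the GTPase of subunit joining, changed by -0.94 ± 0.14 and -0.42 ± 0.14, with the widest SE of the list, and its hBMSC-CM call was lost with library-size scaling, with DESeq2's test, and without any 1 of 3 hBMSC-CM libraries (-0.29 to -0.31).

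Quizartinib in hBMSC-CM lowered 23 and raised 10 of the 49 genes. Of all genes 67.1% were called, 33.5% higher and 33.6% lower, and the groups did not overlap for 32 of the 49 against 68.3% of all genes. Of the 26 genes lowered in RPMI, 23 were lowered in hBMSC-CM too, which are all 23 that fell there, and 9 of the 11 raised in RPMI were among the 10 raised in hBMSC-CM. Of all genes lowered in RPMI 76.5% were also lowered in hBMSC-CM, and of all genes raised 73.2% were also raised. These comparisons use different libraries. Only EIF4EBP1 fell at least 2-fold in hBMSC-CM, against 2.02% of all genes. The log2 change in hBMSC-CM was a median of 0.44 times that in RPMI for the lowered genes, beside 0.49 for all lowered genes of the table. The direction split of all genes depends on scaling in this comparison: 4358 were called higher and 4364 lower with TMM, but 62.7% of calls were higher with library size only and 60% with upper-quartile factors. Library-size scaling shifted the median of all genes by 0.10 on the log2 scale here, and upper-quartile scaling shifted it by 0.11 in RPMI.

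The difference between media was tested as an interaction, where a positive value means that the log2 response to quizartinib was higher in hBMSC-CM. It was called for 28 of the 49 genes, 22 positive and 6 negative, against 45.2% of all genes, 26.4% positive and 18.8% negative. The largest positive values belonged to EIF4A1 (1.37 ± 0.094), EIF5A (1.04 ± 0.070), EIF4EBP1 (0.96 ± 0.080) and EIF4G1 (0.94 ± 0.065). With its copies added, EIF4A1 had a value of 0.92, below those of EIF5A and EIF4EBP1. Negative values were called for EIF4E3 (-0.56 ± 0.13), EIF4B (-0.24 ± 0.069), EIF3F (-0.24 ± 0.063), EIF2AK4 (-0.23 ± 0.073), EIF2B2 (-0.22 ± 0.082) and EIF3L (-0.20 ± 0.064). EIF1, EIF2S3, EIF2AK1 and EIF3D were among the 21 genes without a call. Without the filter on low counts, EIF2AK4, EIF2B2, EIF3F and EIF3L lost their calls, which left 2 negative.

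With quizartinib present, hBMSC-CM against RPMI gave 27 higher and 10 lower genes, with a median of 0.17. Of all genes 69.8% were called, 35.9% higher and 33.9% lower, and the groups did not overlap for 36 of the 49 against 71.5%. The level was at least 2-fold higher for 4 genes, EIF4EBP1 (1.30 ± 0.060), EIF5A (1.14 ± 0.051), EIF4A1 (1.08 ± 0.071) and EIF4G1 (1.06 ± 0.047), against 7.18% of all genes. With its copies added, EIF4A1 was under 2-fold (0.86). Lower levels were called for EIF2D (-0.28 ± 0.053), EIF3F (-0.28 ± 0.044) and EIF3L (-0.24 ± 0.045) among others, though without the filter on low counts 4 genes were called lower. EIF2D stood at 81.5, 85.6 and 81.3 CPM with vehicle and 96.9, 92.3 and 92.4 CPM with quizartinib in RPMI, against 77.2, 71.7 and 78.7 CPM and 83.6, 71.6 and 76.1 CPM in hBMSC-CM. This comparison shares the quizartinib RPMI libraries with the first and all of its libraries with the interaction.

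With vehicle, the medium changed fewer of these genes, 12 higher and 4 lower. Of all genes 32.1% were called, 16.6% higher and 15.5% lower, and the groups did not overlap for 25 of the 49 against 44.6%. EIF4EBP1 (0.34 ± 0.053), EIF2B3 (0.25 ± 0.052) and EIF4E (0.16 ± 0.041) were higher in hBMSC-CM, and EIF4A1 (-0.28 ± 0.062), EIF4EBP2 (-0.22 ± 0.043) and EIF4A2 (-0.13 ± 0.044) were lower. The EIF4A1 call was lost with its copies added. The EIF4A2 call was lost in 6 of 22 alternative fits, among them the fit without the filter on low counts. The count of higher genes fell to 5 without vehicle RPMI replicate 3 and to 4 without vehicle hBMSC-CM replicate 2, and that of lower genes to 2 without any 1 of the vehicle RPMI libraries.

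Ratios of counts within a library, chosen after their values were seen and given without a test, set antagonists and partners side by side. The ratio of EIF4EBP2 to EIF4E was 1.57 ± 0.0451 in vehicle RPMI, 3.81 ± 0.0973 in quizartinib RPMI, 1.21 ± 0.0915 in vehicle hBMSC-CM and 1.66 ± 0.0838 in quizartinib hBMSC-CM (mean ± SD, n = 3). In the same order, EIF4EBP1 to EIF4E was 1.07 ± 0.0146, 0.666 ± 0.0427, 1.20 ± 0.0168 and 0.831 ± 0.0595. Relative to EIF4E, EIF4EBP2 counts were thus higher and EIF4EBP1 counts lower with the drug in both media. For eIF2, EIF2S1 to EIF2S3 was 0.377 ± 0.00985, 0.123 ± 9.86e-05, 0.416 ± 0.00544 and 0.246 ± 0.00973, and for eIF3, EIF3B to EIF3H was 0.895 ± 0.0230, 0.327 ± 0.0150, 1.02 ± 0.0465 and 0.659 ± 0.00871. Both were lowest in quizartinib RPMI.

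**Figure D5:**
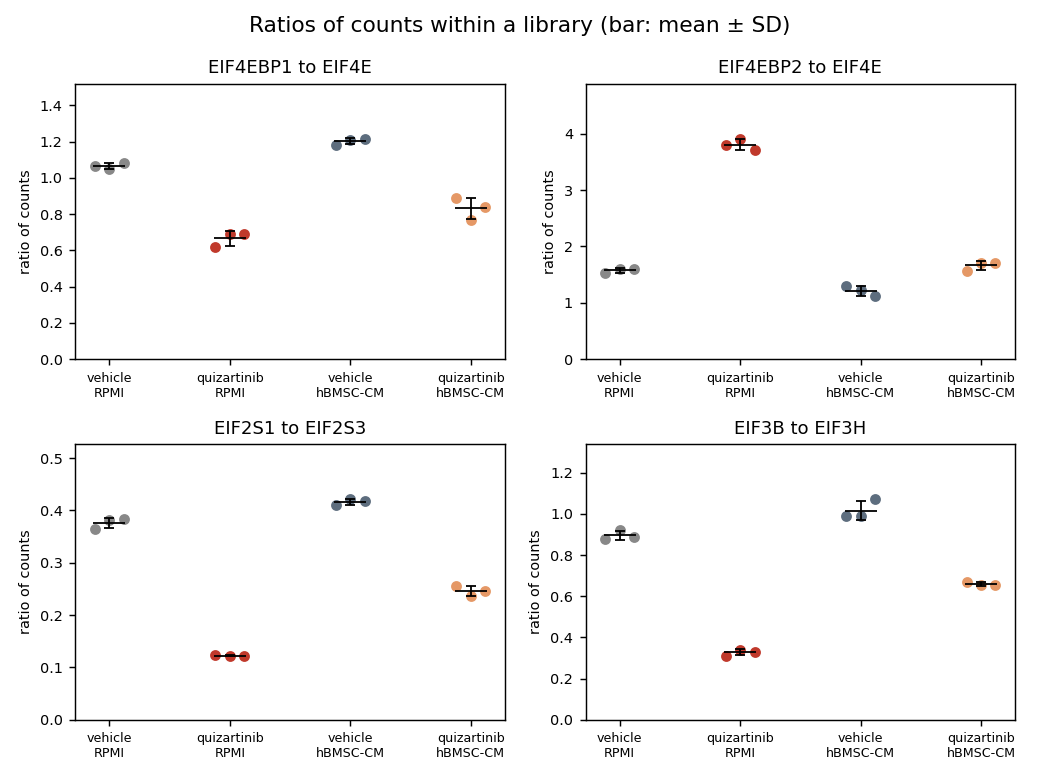
Ratio of counts within each library (vertical axes, starting at 0) for EIF4EBP1 to EIF4E, EIF4EBP2 to EIF4E, EIF2S1 to EIF2S3 and EIF3B to EIF3H in the 4 groups, with mean and SD bars (n = 3). EIF4EBP2 to EIF4E is highest in quizartinib RPMI, and the other ratios are lowest there.

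Levels can be compared between genes only per length. Per kilobase of the canonical GENCODE transcript, EIF3E was the most abundant in every group (631 ± 22.9 CPM per kb in vehicle RPMI, mean ± SD, n = 3), followed by EIF4B (424 ± 11.4) and EIF5A (326 ± 15.3). EIF4G2 (311 ± 2.22) and EIF3K (307 ± 4.36) came next, and EIF5A and EIF4G2 differed by less than the SD of EIF5A. In quizartinib RPMI EIF5A moved from place 3 to place 15 (88.4 ± 4.62), EIF4G1 from 9 to 18 (56.8 ± 1.15) and EIF4EBP1 from 14 to 24 (36.3 ± 2.10), while EIF3H moved from 18 to 9 (152 ± 3.49). The kinases were low, with EIF2AK1 at 34.6 ± 0.677 and EIF2AK3 at 7.86 ± 0.159 CPM per kb in vehicle RPMI. This order depends on the length used: EIF3E has 2022 bases in its canonical transcript and 37761 in its merged exons. Genes that share reads with copies, such as EIF4A1 and EIF3C, may rank too low.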

How the data were processed

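MOLM-13 libraries (3 in each of 4 groups, by the labels) were analysed from 1 table. The authors trimmed reads with BBDuk, aligned them to hg38 with STAR 2.6.0a, summed gene counts by name and deposited raw counts, without normalization. The strand setting of the counting is not given in the sources used here, so overlapping genes, antisense genes and near-identical copies are uncertain. Polysome, animal and protein experiments were not analysed here.

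Kept for testing were 12998 of the 30572 genes with any count, those whose means reached 1 count and 1 CPM. TMM-scaled counts were fitted with edgeR 4.0.16 (quasi-likelihood, R 4.3.3) over all 12 libraries with 4 group means, and p-values were two-sided and Benjamini-Hochberg adjusted over all genes, with a threshold of 0.05. CPM values are TMM-scaled. The procedure was run on simulated counts with few changed genes, about equally up and down, only in the quizartinib RPMI group. Since most genes were called in these data, that simulation could not check the scaling here. Replicate pairs differed by more than sampling noise (chi-square per gene between 2.66 and 10.5), so all 12 libraries were counted. Alternatives were DESeq2 1.42.0 size factors and its Wald test, library size only, upper-quartile factors, limma-voom (limma 3.58.1), 2 other filters, a 2-fold threshold, fits of only the groups compared, a replicate block, each library left out, and copies added (chosen after seeing the data). Transcript lengths came from GENCODE 44 and promoters from RefSeq.

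The genes, lists and ratios were chosen with earlier results of these data known. Values of every library are given for, in each contrast, the 3 largest increases and decreases among called genes that averaged 10 CPM or more and whose groups did not overlap, for the member of each role group with the largest change in RPMI, and for 12 genes picked by role. Other members are given by their changes and counts. Protein sequences were not used here.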

Additional observations from a re-analysis of the deposited data

Results flagged for a closer look

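For 28 of the 49 tested genes the log2 response to quizartinib differed between hBMSC-CM and RPMI by a test of that difference (the interaction term of the edgeR quasi-likelihood fit, adjusted p under 0.05). Values are the response in hBMSC-CM minus that in RPMI, and no explanation was tested. Among the genes grouped with eIF4F and the 4E-BPs the difference was positive for EIF4A1 (1.37), EIF4EBP1 (0.96), EIF4G1 (0.94), EIF4E (0.82), EIF4G3 (0.71), EIF4A3 (0.59), EIF4A2 (0.19), EIF4H (0.16) and EIF4E2 (0.15). In eIF2 and eIF2B it was positive for EIF2S1 (0.75), EIF2B3 (0.72), EIF2B5 (0.38), EIF2B1 (0.38) and EIF2S2 (0.37). Among scanning factors, eIF3 and late factors it was positive for EIF5A (1.04), EIF1AX (0.80), EIF3B (0.71), EIF5B (0.53), EIF3J (0.40), EIF5 (0.30), EIF3A (0.20) and EIF6 (0.19). It was negative for EIF3L (-0.20), EIF2B2 (-0.22), EIF2AK4 (-0.23), EIF3F (-0.24), EIF4B (-0.24) and EIF4E3 (-0.56). EIF6, EIF4H, EIF4E2, EIF3A, EIF5B and EIF2B2 had an edgeR adjusted p between 0.0308 and 0.0451, and each of these calls was lost when some single libraries were left out and under at least 1 other alternative. EIF6 lost its call in 14 and EIF4H in 13 of 21 alternative fits. Without vehicle hBMSC-CM replicate 3 the EIF5B value was 0.33.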

How the results depend on the processing

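Each of the 5 comparisons was refitted with other scaling, filters, tests and sample sets and with each library left out, and no gene of the list reversed direction past the threshold. Of 151 called results over the 5 comparisons, 108 were called in every alternative fit (22, or 21 for the interaction, which has no fit of only the groups compared), and 43 were lost in at least 1, the largest of these with a log2 fold change of 0.53 in size. With a threshold of at least 2-fold, quizartinib in RPMI gave 0 higher and 8 lower genes, in hBMSC-CM 0 and 1, the medium comparison with drug 4 and 0, that without drug 0 and 0, and the interaction 2 and 0. Without the filter on low counts, lower genes numbered 4 for the medium with quizartinib, 2 for the medium with vehicle and 2 for the interaction. With upper-quartile factors, 6 genes were higher in hBMSC-CM with vehicle. The cause was not tested. Leaving out 1 library gave 4 to 12 higher and 2 to 5 lower genes for hBMSC-CM against RPMI with vehicle. For the interaction it gave 16 to 21 positive and 4 to 8 negative genes, and for quizartinib in RPMI 23 to 27 lower genes with 11 higher each time. Apart from the 2-fold threshold, the fits on all libraries or other sets gave 23 to 34 lower and 9 to 16 higher genes for quizartinib in RPMI. In hBMSC-CM they gave 18 to 26 lower and 9 to 14 higher genes. Replicate numbers did not mark pairs: same-numbered libraries of different groups had deviations correlated between -0.34 and 0.17, and 0 libraries correlated best with their own number. Differently numbered libraries of different groups were correlated between -0.27 and 0.36. An effect shared by libraries of different numbers would not be captured by a block on the number, and was not tested. A fit with the replicate block lost 6 and gained 0 of the calls, with 25 genes lowered and 11 raised by quizartinib in RPMI. Of all calls for the interaction, 70.6% were positive without the filter, against 3433 positive and 2440 negative calls with it. At these depths 3 counts equal 0.0951 to 0.150 CPM, and all 50 genes lay above that in every library.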

Other observations

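Beside the initiation factors, 34 partner genes of the pathway were counted, a list written with earlier results of these data known. In RPMI quizartinib lowered 21 and raised 10 of them (91.2% called, against 79.2% of all genes, 39.4% lower and 39.8% higher). ABCE1, which recycles ribosomes, LARP1, which binds mRNAs of the translation machinery, and EIF5A2, a paralog of EIF5A, changed by -1.61 ± 0.050, -1.26 ± 0.077 and -1.16 ± 0.21 on the log2 scale (± SE). EIF5A2 was near the filter on low counts, with a mean of 1.81 CPM over all libraries. PAIP2B, which binds the poly(A)-binding protein, PDCD4, which inhibits eIF4A, and PPP1R15A, a subunit of the eIF2α phosphatase, rose by 1.89 ± 0.10, 1.59 ± 0.047 and 0.87 ± 0.048.

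In hBMSC-CM 17 partner genes fell and 6 rose under the drug (67.6%, against 67.1% of all genes), with PDCD4 at 0.87 ± 0.048, PAIP2B at 0.65 ± 0.13, PPP1R15A at 0.37 ± 0.051, EIF5A2 at -0.96 ± 0.19, ATF4 at -0.77 ± 0.047 and DOHH, which completes hypusine on eIF5A, at -0.69 ± 0.091. The transcript of ATF4, whose translation rises when eIF2α is phosphorylated, was thus lower with quizartinib in both media (-0.43 ± 0.046 in RPMI), and its interaction was -0.34 ± 0.066. With quizartinib, hBMSC-CM against RPMI gave 18 higher and 8 lower partner genes (76.5%, against 69.8% of all genes), and the interaction was positive for 15 and negative for 8 (67.6%, against 45.2%). With vehicle, 10 were higher and 3 lower in hBMSC-CM (38.2%, against 32.1%), with CTIF at 0.42 ± 0.071 and PPP1R15A at -0.51 ± 0.051. MYC, named beside the E-boxes, changed by -3.09 ± 0.051 in RPMI and -0.40 ± 0.045 in hBMSC-CM, and its part in the results was not tested.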
